A study of Rattus norvegicus with 12 samples.

Results

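Levels of 10 circadian clock genes, *Bmal1* (named *Arntl* in older annotations), *Per1*, *Per2*, *Per3*, *Cry1*, *Cry2*, *Nr1d1*, *Nr1d2*, *Dbp* and *Nfil3*, were compared in rat hippocampal neurons after oxygen and glucose deprivation (OGD), a culture model of cerebral ischemia. They are 10 of the 15148 genes that could be named on the array, and 15 of its 30367 non-control probes carry an accession of one of them. The probes were found by accession, and each gene is given by its brightest probe, that with the highest mean log2 signal over the 12 arrays. *Dbp* and *Per3* have 3 probes each and *Bmal1* has 2, and the further probes are given beside the first.

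The cells were primary hippocampal neurons of Wistar rat embryos at embryonic day 18, kept in culture for 14 to 15 days. In the OGD groups the medium was replaced with a saline without glucose inside an anaerobic chamber. In the control (Ctrl) groups the saline held glucose and the cells stayed in air and CO2, so the controls went through the same change of medium. All 4 groups (Ctrl 7 h, OGD 7 h, Ctrl 24 h and OGD 24 h) were then returned to conditioned medium. They recovered for 7 h or 24 h before RNA was collected, with 3 independent cultures per group and 1 array per replicate. Whether 1 culture was split over the groups is not stated. Such cultures have no suprachiasmatic input. The medium changes are a stimulus that Ctrl and OGD cells share, and no untouched culture was analysed here. The tests below measure the spread between cultures.

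Values are log2 intensities relative to the array's own median over non-control probes, so a value of 1 means 2 times the array median. A probe's value can be compared between arrays but not with that of another probe. Values of a group are listed in the order of replicates 1, 2 and 3. A difference is a log2 fold change from a limma model of the 4 groups over all 12 arrays. A gene is said to pass when its unadjusted limma p was under 0.05, that is, when the 95% confidence interval of its difference leaves out 0. Printed p-values are adjusted over all 30367 probes (Benjamini-Hochberg). All 10 brightest probes were well above background on all 12 arrays, and none was saturated.

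The arrays differed in brightness. The median intensity of the 6 Ctrl arrays lay between 402 and 660, and that of the OGD 7 h arrays between 234 and 426. In the OGD 24 h group it was 131 for replicate 1, against 374 and 546 for replicates 2 and 3. OGD 24 h replicate 1 therefore stands apart, and results that rest on it are given with and without it. Each of the 6 slides held the Ctrl and the OGD array of 1 time and replicate. All 7 h arrays were scanned on 1 day and all 24 h arrays on another, so a difference between the times cannot be told apart from scan day or slide.

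The clock is a feedback loop of transcription. BMAL1, paired with CLOCK or NPAS2, binds E-boxes and drives the *Per* and *Cry* genes, whose proteins return to the nucleus and block that activity. A second loop runs through the nuclear receptors REV-ERBα (*Nr1d1*) and REV-ERBβ (*Nr1d2*), which repress *Bmal1*. In the output branch DBP activates genes with a D-box and NFIL3 (E4BP4) represses them, so the *Dbp* and *Nfil3* proteins compete for one element. The loop runs in neurons and glia outside the master clock as well, and single cells in culture drift apart in phase until a change of medium or another stimulus sets them together.

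Of the elements that define these loops, 3 kinds are printed here, each in the promoter of a member. The windows come from the RefSeq annotation of the rat genome build GRCr8 and are written 5′ to 3′ on the strand of the gene, with the element in capitals. Promoters were found for 9 of the 10 genes, and *Nr1d1* has 2 starts in the annotation, so 10 promoters were searched from 250 bases before to 50 bases after the start, on both strands. In the *Bmal1* window, chr1:176766228-176766327 on the plus strand, the capitals mark a match to the element of the ROR and REV-ERB receptors, at bases -16 to -10 from the start. In the *Nr1d1* window, chr10:84229592-84229691 on the minus strand, they mark an E-box at bases -191 to -186. In the *Per2* window, chr9:99497132-99497231 on the minus strand, they mark a D-box at bases -192 to -185.
Bmal1: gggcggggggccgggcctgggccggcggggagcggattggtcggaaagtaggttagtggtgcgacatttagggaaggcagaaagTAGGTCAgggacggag
Nr1d1: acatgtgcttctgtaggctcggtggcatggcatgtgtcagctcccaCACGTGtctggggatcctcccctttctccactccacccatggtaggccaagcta
Per2: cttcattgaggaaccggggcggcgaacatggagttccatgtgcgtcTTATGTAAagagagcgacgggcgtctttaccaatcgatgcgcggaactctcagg
The letters searched were CACGTG for the E-box, TTATGTAA or TTACGTAA for the D-box, TAGGTCA or TGGGTCA for the ROR and REV-ERB element, and TGACGTCA for the CRE, the site of CREB. One of the 10 member promoters held the E-box, against 6.42% of the 33469 promoters of the annotation. The D-box was in 1 of 10, against 1.01%, and the ROR and REV-ERB element in 1 of 10, against 6.6%. The CRE was in none of the 10, against 1.83% of all promoters. These are matches of letters in short windows and do not show binding.

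After OGD, 1 of the 10 genes passed at 7 h and 2 passed at 24 h, all of them lower than in Ctrl. At 7 h this was *Cry2*, a repressor of the core loop, 1.5-fold lower, while 7.03% of all probes passed as lower and 4.79% as higher. At 24 h these were *Nfil3*, 2.25-fold lower, and *Cry2*, 1.41-fold lower, against 6.19% of all probes that passed as lower and 7.51% as higher. No member passed the adjusted test in either comparison, and neither did any other probe (0% of 30367), where the methods' t-test gave 1 probe at 7 h and 0 at 24 h. The median difference over the 10 genes was 0.05 at 7 h and -0.32 at 24 h, where the medians of all probes were -0.06 and 0.01. At 24 h 9 of the 10 differences were below 0. The 24 h median was -0.19 without OGD 24 h replicate 1, with 8 of the 10 below 0. With all arrays kept and centred on the 75th percentile, the 24 h differences of *Per1* and *Bmal1* turned above 0 (0.05 and 0.06). Being bulk RNA, these values cannot tell fewer cells of a type from less RNA per cell.

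**Figure D1:**
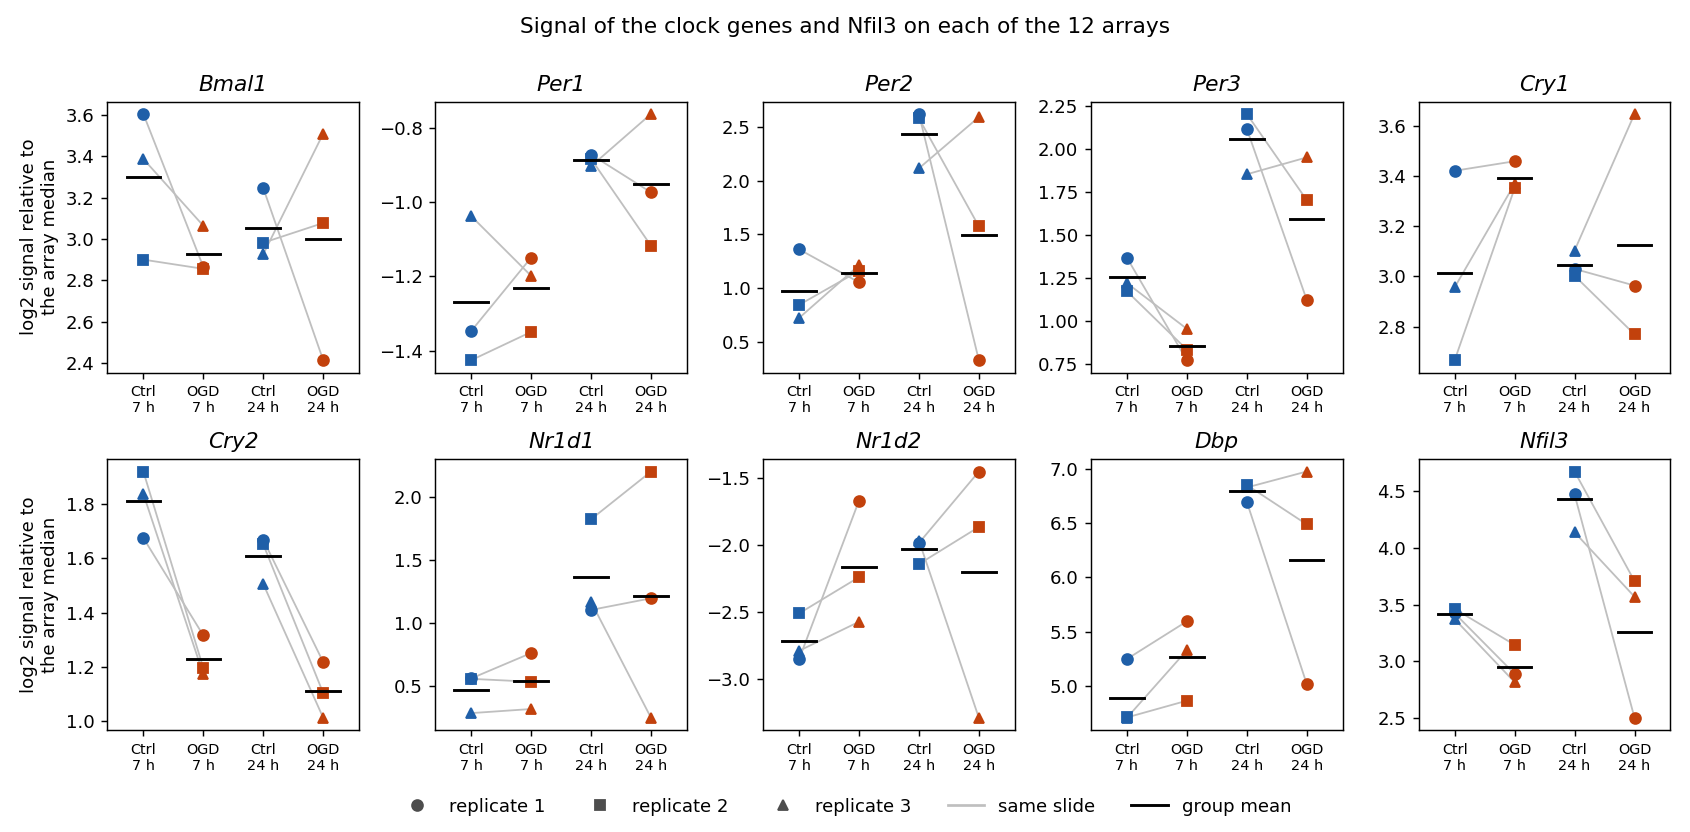
Log2 signal relative to the array median (vertical axes, 1 scale per gene) of the brightest probe of each gene on the 12 arrays, by group. Blue points are Ctrl and red points OGD arrays, the shape gives the replicate, grey lines join arrays of 1 slide and black bars are group means. *Cry2* was lower in OGD than in Ctrl on all 6 slides, *Nfil3* likewise, and OGD 24 h replicate 1 holds the lowest value of *Nfil3*, *Per2* and *Bmal1*.

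*Nfil3*, which encodes the D-box repressor, was measured by probe A_44_P201028. Its values were 3.42, 3.46 and 3.37 in Ctrl 7 h and 2.89, 3.14 and 2.82 in OGD 7 h. In Ctrl 24 h they were 4.47, 4.68 and 4.14, and in OGD 24 h 2.50, 3.71 and 3.57. At each time the 3 OGD arrays lay below the 3 Ctrl arrays with no overlap, and the 3 OGD 24 h values spread over 1.21 where the Ctrl 7 h values spread over 0.09. The difference at 7 h was -0.47 (SE 0.29, adjusted p = 0.535). At 24 h it was -1.17 (SE 0.29, adjusted p = 0.254). Among all probes 1.96% passed as lower with a fold of at least 2 at 24 h, the criterion that *Nfil3* met there.

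OGD 24 h replicate 1 held the lowest *Nfil3* value of the 12 arrays. Without this array the 24 h difference was -0.79 (SE 0.19, adjusted p = 0.436), no longer 2-fold. The 7 h difference stayed at -0.47 without it but then passed (adjusted p = 0.156), since the model shares 1 estimate of the spread over the groups. On the 3 slides of the 7 h arrays OGD minus Ctrl was -0.53, -0.32 and -0.56. On those of the 24 h arrays it was -1.97, -0.97 and -0.57. *Nfil3* was thus lower on 6 of 6 slides. The change of the OGD effect from 7 h to 24 h was -0.70 (SE 0.42, interval -1.62 to 0.22), so a difference between the times was not shown.

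*Dbp* encodes the activator that shares the D-box with NFIL3. Its brightest probe, A_64_P017188, gave 5.25, 4.71 and 4.71 in Ctrl 7 h and 5.60, 4.86 and 5.33 in OGD 7 h. It gave 6.70, 6.85 and 6.83 in Ctrl 24 h and 5.02, 6.49 and 6.98 in OGD 24 h. The OGD and Ctrl groups overlapped at both times, and at 24 h 1 OGD array lay far below the other arrays and 1 above all 3 Ctrl arrays. The differences were 0.37 at 7 h (95% confidence interval -0.56 to 1.31, adjusted p = 0.748) and -0.63 at 24 h (interval -1.57 to 0.30, adjusted p = 0.512). The 24 h value rested on OGD 24 h replicate 1. Without it the difference was -0.06 (adjusted p = 0.961), and without OGD 24 h replicate 3 it was -1.04 and passed (adjusted p = 0.209).

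Of the cryptochromes, the repressors that act with the PER proteins, *Cry2* passed at both times. Probe A_64_P050964 gave 1.68, 1.92 and 1.84 in Ctrl 7 h against 1.32, 1.20 and 1.17 in OGD 7 h. At 24 h it gave 1.67, 1.65 and 1.51 in Ctrl against 1.22, 1.1 and 1.01 in OGD. The groups did not overlap at either time, and every OGD value was below every Ctrl value of the 12 arrays. The difference was -0.58 at 7 h (SE 0.15, adjusted p = 0.262) and -0.50 at 24 h (SE 0.15, adjusted p = 0.281). On the slides it ranged from -0.73 to -0.36 at 7 h and from -0.55 to -0.45 at 24 h. Leaving out any 1 of the 12 arrays kept the difference between -0.65 and -0.53 at 7 h and between -0.55 and -0.45 at 24 h. At 24 h it missed the threshold with centring on the 75th percentile (-0.39, SE 0.20) and in a limma fit of the 6 arrays of 24 h alone (-0.50, SE 0.22). Its change between the times was 0.09 (SE 0.22, interval -0.40 to 0.57).

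*Cry1*, the other cryptochrome, did not pass. Its values on probe A_44_P374708 were 3.42, 2.67 and 2.96 in Ctrl 7 h, 3.46, 3.35 and 3.37 in OGD 7 h, 3.03, 3.0 and 3.1 in Ctrl 24 h, and 2.96, 2.77 and 3.65 in OGD 24 h. The groups overlapped at both times, with differences of 0.38 at 7 h (interval -0.18 to 0.94) and 0.08 at 24 h (interval -0.48 to 0.64). Among all probes 15.5% had OGD values wholly below Ctrl at 7 h, as *Nfil3*, *Per3* and *Cry2* had (3 of 10), and 7.02% at 24 h, as *Nfil3* and *Cry2* had (2 of 10).

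The 3 *Period* genes encode the repressors that accumulate in the core loop and time it. *Per2* is the one whose promoter held the D-box shown above. Its probe A_42_P708593, spotted 10 times per array, gave 1.36, 0.84 and 0.72 in Ctrl 7 h and 1.05, 1.16 and 1.21 in OGD 7 h. It gave 2.62, 2.58 and 2.12 in Ctrl 24 h and 0.33, 1.58 and 2.59 in OGD 24 h. The 3 OGD 24 h cultures were far apart, from below the lowest Ctrl 7 h value to within the Ctrl 24 h range. The differences were 0.17 at 7 h (SE 0.45, adjusted p = 0.891) and -0.94 at 24 h (SE 0.45, interval -1.94 to 0.06, adjusted p = 0.387). Without OGD 24 h replicate 1 the latter was -0.36 (adjusted p = 0.701), and without replicate 3 it was -1.49 and passed (adjusted p = 0.159).

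*Per3* on its brightest probe, A_64_P119407, was 1.37, 1.17 and 1.22 in Ctrl 7 h and 0.77, 0.83 and 0.95 in OGD 7 h, with no overlap. At 24 h it was 2.12, 2.20 and 1.85 in Ctrl and 1.12, 1.70 and 1.95 in OGD, with overlap. The differences were -0.40 (SE 0.22, adjusted p = 0.495) and -0.47 (SE 0.22, adjusted p = 0.378). Neither passed. Without OGD 24 h replicate 1 the 7 h difference was the same in size but passed (adjusted p = 0.166), and the 24 h difference was -0.23 (adjusted p = 0.63). Without OGD 24 h replicate 3 the latter was -0.65 and passed (adjusted p = 0.187).

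*Per1*, the *Period* gene with a rapid response to many stimuli, was dim. Probe A_64_P300243 had intensities of 38.3 to 140 over the 12 arrays. Its log2 values were -1.35, -1.43 and -1.04 in Ctrl 7 h, -1.15, -1.35 and -1.20 in OGD 7 h, -0.87, -0.88 and -0.90 in Ctrl 24 h, and -0.97, -1.12 and -0.76 in OGD 24 h. The OGD and Ctrl values overlapped at both times, with differences of 0.04 (interval -0.34 to 0.42) and -0.06 (interval -0.44 to 0.31).

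*Bmal1* encodes the activator of the core loop. Its brightest probe, A_44_P214873, gave 3.61, 2.90 and 3.39 in Ctrl 7 h and 2.86, 2.86 and 3.06 in OGD 7 h, a difference of -0.37 (interval -0.99 to 0.25, adjusted p = 0.617). At 24 h it gave 3.25, 2.98 and 2.93 in Ctrl and 2.41, 3.08 and 3.51 in OGD, a difference of -0.05 (interval -0.67 to 0.57). OGD 24 h replicate 1 was the lowest and replicate 3 the second highest of the 12 arrays, so the small mean difference at 24 h hides a wide spread. Without replicate 1 the 24 h difference was 0.24, and without replicate 3 it was -0.31.

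The REV-ERB genes, whose products repress *Bmal1* through elements of the kind shown above, did not pass after OGD. *Nr1d1*, on probe A_44_P175041, gave 0.56, 0.56 and 0.29 in Ctrl 7 h, 0.76, 0.54 and 0.32 in OGD 7 h, 1.1, 1.82 and 1.17 in Ctrl 24 h, and 1.20, 2.20 and 0.25 in OGD 24 h. OGD 24 h replicate 3 was the lowest of all 12. *Nr1d2*, on the dim probe A_44_P395572 with intensities of 24.4 to 54, gave -2.85, -2.51 and -2.79 in Ctrl 7 h and -1.67, -2.24 and -2.57 in OGD 7 h. At 24 h it gave -1.99, -2.14 and -1.97 in Ctrl and -1.45, -1.87 and -3.29 in OGD. Again OGD 24 h replicate 3 was the lowest of all 12, whereas the other OGD 24 h arrays lay above the 3 Ctrl 24 h arrays.

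The differences of *Nr1d1* were 0.07 at 7 h (interval -0.83 to 0.97) and -0.15 at 24 h (interval -1.05 to 0.75). Those of *Nr1d2* were 0.56 (interval -0.34 to 1.46) and -0.17 (interval -1.07 to 0.73). Without OGD 24 h replicate 3 the 24 h differences turned to 0.33 for *Nr1d1* and 0.37 for *Nr1d2*. In that replicate the brightest probes of *Bmal1*, *Per1*, *Per2*, *Per3*, *Dbp* and *Cry1* were the highest of the 3 OGD 24 h arrays. *Cry2* was the lowest there, and *Nfil3* lay between the other replicates. On the further probes of *Dbp* and *Bmal1*, and on A_64_P127337 of *Per3*, replicate 2 was the highest instead. In 9 of the 10 genes, all but *Cry2*, the range over the 3 OGD 24 h arrays was wider than the difference from Ctrl 24 h.

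**Figure D2:**
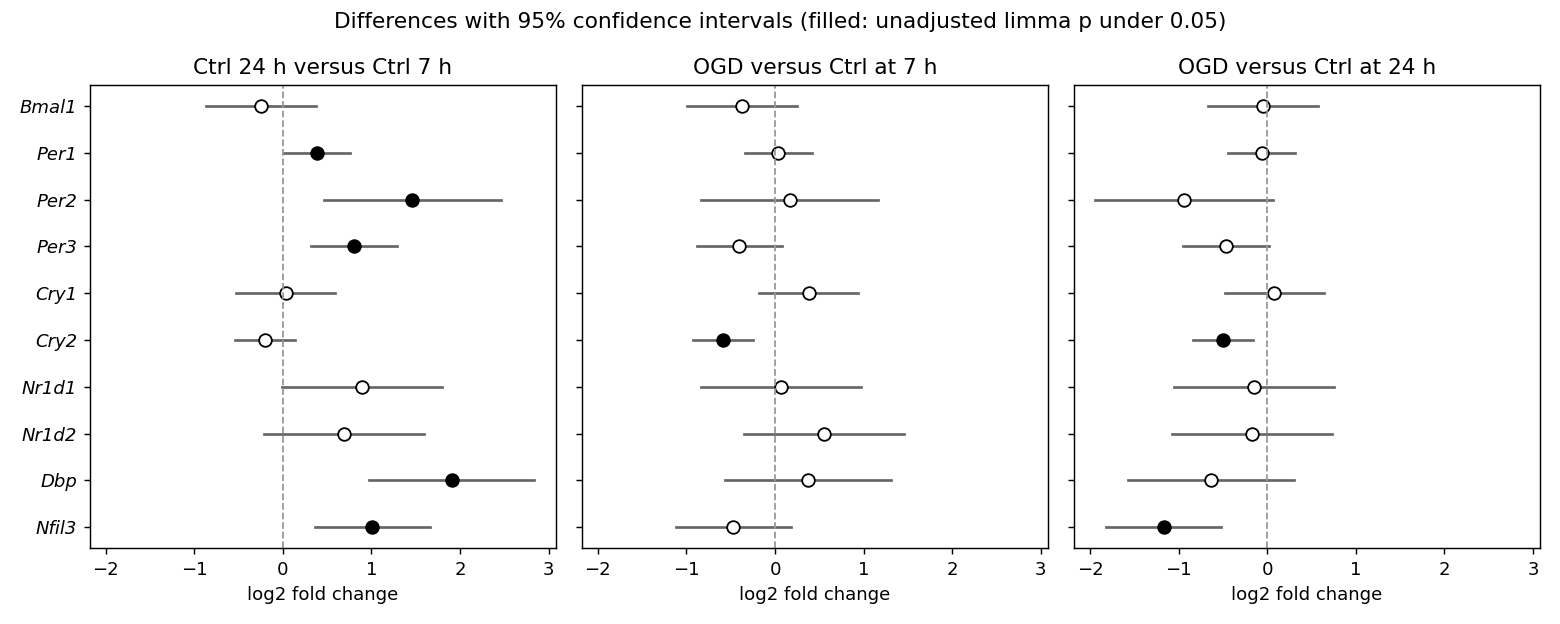
Log2 fold changes (horizontal axes) of the 10 genes between control times (left), and of OGD against Ctrl at 7 h (centre) and 24 h (right), with 95% confidence intervals from the limma model of 12 arrays. Filled points had an unadjusted p under 0.05: 5 genes between the control times, *Cry2* at 7 h, and *Nfil3* and *Cry2* at 24 h.

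None of the 10 genes passed the test of a change in the OGD effect between 7 h and 24 h, for which 3.58% of all probes passed in either direction. Of the 10 changes 8 were below 0. *Per2* had -1.11 (SE 0.64, interval -2.52 to 0.31) and *Dbp* -1.01 (SE 0.60, interval -2.33 to 0.32). Without OGD 24 h replicate 1 these were -0.52 and -0.44, and without OGD 24 h replicate 3 they were -1.65 and -1.41 and both passed (adjusted p = 0.907 for each).

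More of the clock genes passed between the 2 control groups than after OGD. In Ctrl 24 h 5 of the 10 genes passed as higher than in Ctrl 7 h, *Dbp*, *Per2*, *Nfil3*, *Per3* and *Per1*, and none as lower, where 5.65% of all probes passed as higher and 9.07% as lower. *Dbp* (3.75-fold), *Per2* (2.76-fold) and *Nfil3* (2.01-fold) also reached a fold of 2, against 0.83% of all probes. The median difference of the 10 genes was 0.75, that of all probes -0.05. These values are relative to the other probes. The 1 usable spike-in probe had a log2 intensity of 5.58 to 6.75 on the 7 h arrays and 9.75 to 12.6 on the 24 h arrays, and whether the amount added differed between the days was not tested. Scaled to it, all probes shifted by a median of -4.62 and all 10 genes were below 0 in Ctrl 24 h, but relative to that shift *Dbp* stood at 1.96, *Per2* at 1.52, *Nfil3* at 1.06, *Per3* at 0.86 and *Per1* at 0.44.

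The largest difference was that of *Dbp*, at 1.91 (SE 0.42, adjusted p = 0.0968). *Per2* had 1.46 (SE 0.45, adjusted p = 0.2). *Nfil3* had 1.01 (SE 0.29, adjusted p = 0.179). In these genes, and in *Per3*, every Ctrl 24 h value was above every Ctrl 7 h value. *Per3* had 0.80 (SE 0.22, adjusted p = 0.154). *Per1* had 0.38 (SE 0.17, adjusted p = 0.334), a call lost on leaving out any 1 of 8 arrays and with centring on the 75th percentile (0.35, SE 0.20). The control groups did not overlap in any of these 5 genes, so leaving out 1 array could not turn a sign. The difference of *Dbp* then lay between 1.81 and 2.09.

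No brightest probe of the 10 genes passed the adjusted test in this comparison, in which 0.211% of all probes did. By the methods' t-test, which uses the control arrays alone, none of the 10 genes passed after adjustment either (lowest adjusted p = 0.0591). In the limma model the outcome turned on OGD 24 h replicate 1. That array is in neither control group, but the arrays share 1 estimate of the spread. Without OGD 24 h replicate 1 the adjusted limma p was 0.0111 for *Dbp*, 0.0214 for *Nfil3*, 0.0296 for *Per3* and 0.0311 for *Per2*, with the same differences. In that fit 812 probes passed after adjustment, 2.67% of all probes.

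The REV-ERB genes lay between. *Nr1d1* was higher in each Ctrl 24 h array than in each Ctrl 7 h array, with a difference of 0.90 (SE 0.41, interval -0.01 to 1.80, adjusted p = 0.343). For *Nr1d2* the groups did not overlap either, with a difference of 0.69 (SE 0.41, adjusted p = 0.469). In a limma fit of the 6 control arrays alone both passed, with SEs of 0.23 and 0.15. *Bmal1* and *Cry1* overlapped between the control times, with differences of -0.25 (interval -0.87 to 0.37) and 0.03 (interval -0.53 to 0.59). *Cry2* was lower in each Ctrl 24 h array than in each Ctrl 7 h array, with a difference of -0.20 that did not pass (adjusted p = 0.549). In all, 7 of the 10 genes were higher without overlap, against 14% of all probes, and 1 was lower without overlap, against 16.5%.

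The OGD cultures of the 2 times were set against each other in the same way. From OGD 7 h to OGD 24 h 1 of the 10 genes passed, *Per3*, with 0.74 (adjusted p = 0.133), where 9.24% of all probes passed as higher. After adjustment 0.609% of all probes passed and none of the 10 genes. *Dbp* had 0.90 (interval -0.04 to 1.83), *Per2* 0.36 and *Nfil3* 0.31. Without OGD 24 h replicate 1 the same differences were 0.97 for *Per3* (adjusted p = 0.00666), 1.47 for *Dbp* (adjusted p = 0.00666), 0.94 for *Per2* (adjusted p = 0.0645) and 0.69 for *Nfil3* (adjusted p = 0.0346), and all 4 passed. Without that array the share of all probes that passed as higher was also larger, at 16.5%, and 17.7% of all probes passed after adjustment, as 3 of the 10 genes did.

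Several probes were present for 3 of the genes. The 3 probes of *Dbp* moved together between the control times but not on every slide after OGD. Between the control times the 2 further probes had 2.18 (A_64_P049827, adjusted p = 0.0547) and 2.03 (A_64_P049828, adjusted p = 0.0494), and the last of these passed the adjusted test. In OGD 24 h replicate 1 all 3 *Dbp* probes were the lowest of the 24 h arrays. After OGD none of the 3 passed at either time. At 24 h OGD minus Ctrl on the slides of replicates 2 and 3 was -0.36 and 0.15 on the brightest probe. It was 0.05 and -0.45 on A_64_P049827, and 0.08 and -0.58 on A_64_P049828. Without OGD 24 h replicate 3 the 24 h difference was -0.69 and -0.55 on these further probes and did not pass, against -1.04 on the brightest. The change of the OGD effect in that fit was -1.16 and -1.08 on them and did not pass either.

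For *Bmal1*, probe A_64_P117345 gave 1.45, 1.30 and 1.47 in Ctrl 7 h and 1.02, 0.92 and 0.87 in OGD 7 h, with no overlap. In Ctrl 24 h it gave 0.95, 0.81 and 0.79, and in OGD 24 h 0.52, 0.95 and 0.87. Its difference was -0.47 after OGD at 7 h (SE 0.17, adjusted p = 0.332) and -0.55 between the control times (SE 0.17, adjusted p = 0.19). Both passed and had the sign of the brighter probe's differences, which did not pass.

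For *Per3* the probes disagreed in part. At 7 h after OGD all 3 were below 0, with -0.40 on the brightest, -0.31 on A_64_P119405 and -0.67 on A_64_P127337, and the last of these passed (adjusted p = 0.413). Between the control times the further probes had 0.17 (A_64_P119405, adjusted p = 0.757) and 0.62 (A_64_P127337, adjusted p = 0.359), against 0.80 on the brightest. At 24 h after OGD A_64_P119405 was higher in OGD on each slide, by 0.80, 0.13 and 0.26, where the brightest probe had -0.47. Its OGD and Ctrl values overlapped, since OGD replicate 2 (-1.26) lay below Ctrl replicate 3 (-1.20). A_64_P127337 was well above background on 8 of the 12 arrays. With the mean of the 3 probes in place of the brightest, the *Per3* difference at 24 h was -0.01.

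**Figure D3:**
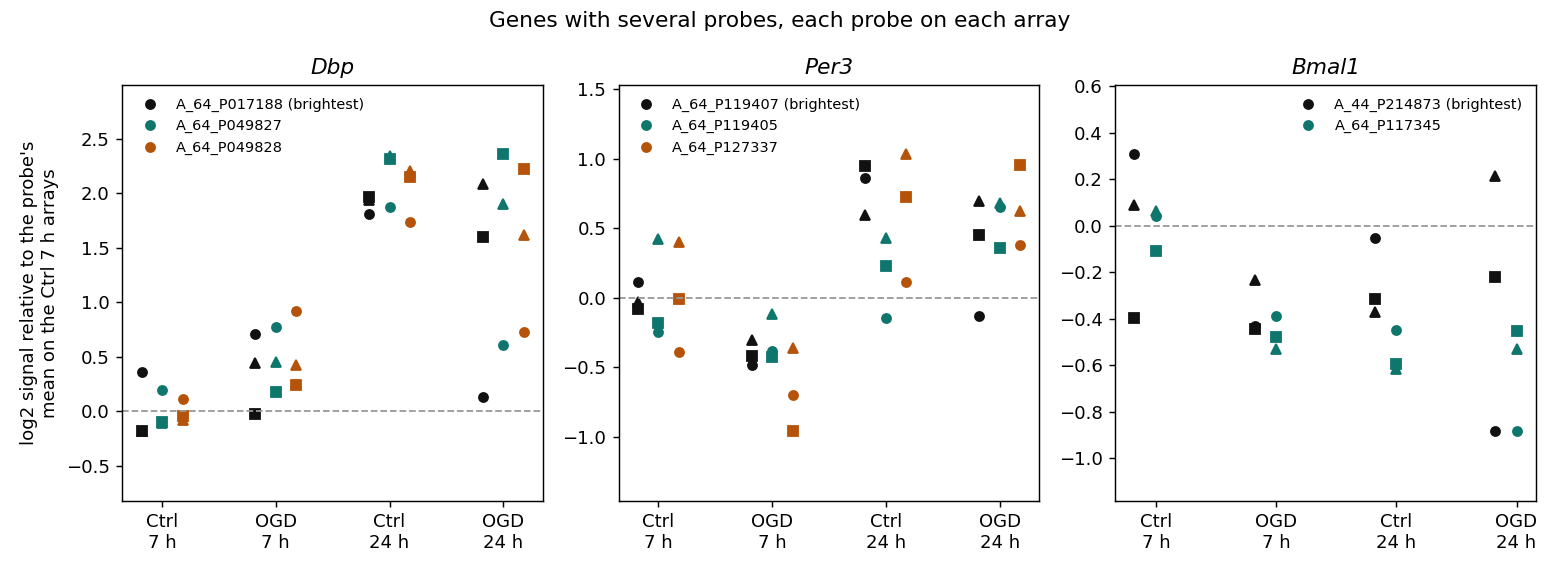
Log2 signal of each probe of *Dbp*, *Per3* and *Bmal1* on each array, relative to that probe's mean on the 3 Ctrl 7 h arrays (vertical axes), by group. Colours are probes, and circles, squares and triangles are replicates 1, 2 and 3. All *Dbp* probes lie higher in Ctrl 24 h than in Ctrl 7 h, while the *Per3* probes part after OGD at 24 h.

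Of 22 other genes of the clock that were listed, 15 had a probe. They take in the partners of BMAL1, further repressors at E-boxes, the D-box activator TEF, and kinases, ubiquitin ligases and a deubiquitinase that set the stability of clock proteins. No match was found for *Rora* and *Hlf*. After OGD none of the 15 passed at 7 h (0 of 15, against 11.8% of all probes in either direction) or at 24 h (0 of 15, against 13.7%). By the methods' t-test 2 of them passed unadjusted at 7 h and 0 at 24 h; the 2 were *Csnk1e* and *Gsk3b*, named after their values were seen, and 15.5% of all probes passed that test at 7 h. The 3 probes of *Csnk1e* went opposite ways at 7 h, with 0.73, 0.68 and -0.51. The median difference of the 15 genes was -0.05 at 7 h and -0.23 at 24 h, and 12 of the 15 were below 0 at 24 h. From OGD 7 h to OGD 24 h 3 of the 15 passed, *Timeless*, *Bmal2* and *Usp2*. All 3 were higher in OGD 24 h, where 9.24% of all probes passed as higher. *Bmal2* had 0.75 (adjusted p = 0.159), and 0 of the 15 passed after adjustment.

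Between the control times 2 of the 15 passed, both higher in Ctrl 24 h (14.7% of all probes passed in either direction). *Usp2*, a deubiquitinase that acts on clock proteins and whose gene is itself rhythmic, had 0.87 (SE 0.18, adjusted p = 0.082). *Bhlhe40*, which encodes the E-box repressor DEC1, had 0.55 (SE 0.24, adjusted p = 0.334). By the methods' t-test 4 of the 15 passed unadjusted, *Usp2*, *Csnk1e*, *Gsk3b* and *Clock*, against 20.3% of all probes, and *Bhlhe40* did not. *Clock* had -0.30, *Npas2* 0.81 (adjusted p = 0.461) and *Tef* 0.32. The 2 probes of *Npas2* disagreed, since the dimmer one had 0.06. After OGD at 24 h *Tef* had -0.64 (adjusted p = 0.403), *Npas2* -0.73 (adjusted p = 0.498) and *Clock* 0.14. These values leaned on OGD 24 h replicate 1. On the slides of replicates 1, 2 and 3 OGD minus Ctrl was -1.59, -0.13 and -0.20 for *Tef*. For *Npas2* it was -2.48, 0.02 and 0.26, and for *Clock* 1.01, -0.25 and -0.35. On the dimmer probe of *Npas2* it was 1.02, 0.12 and -0.11.

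**Figure D4:**
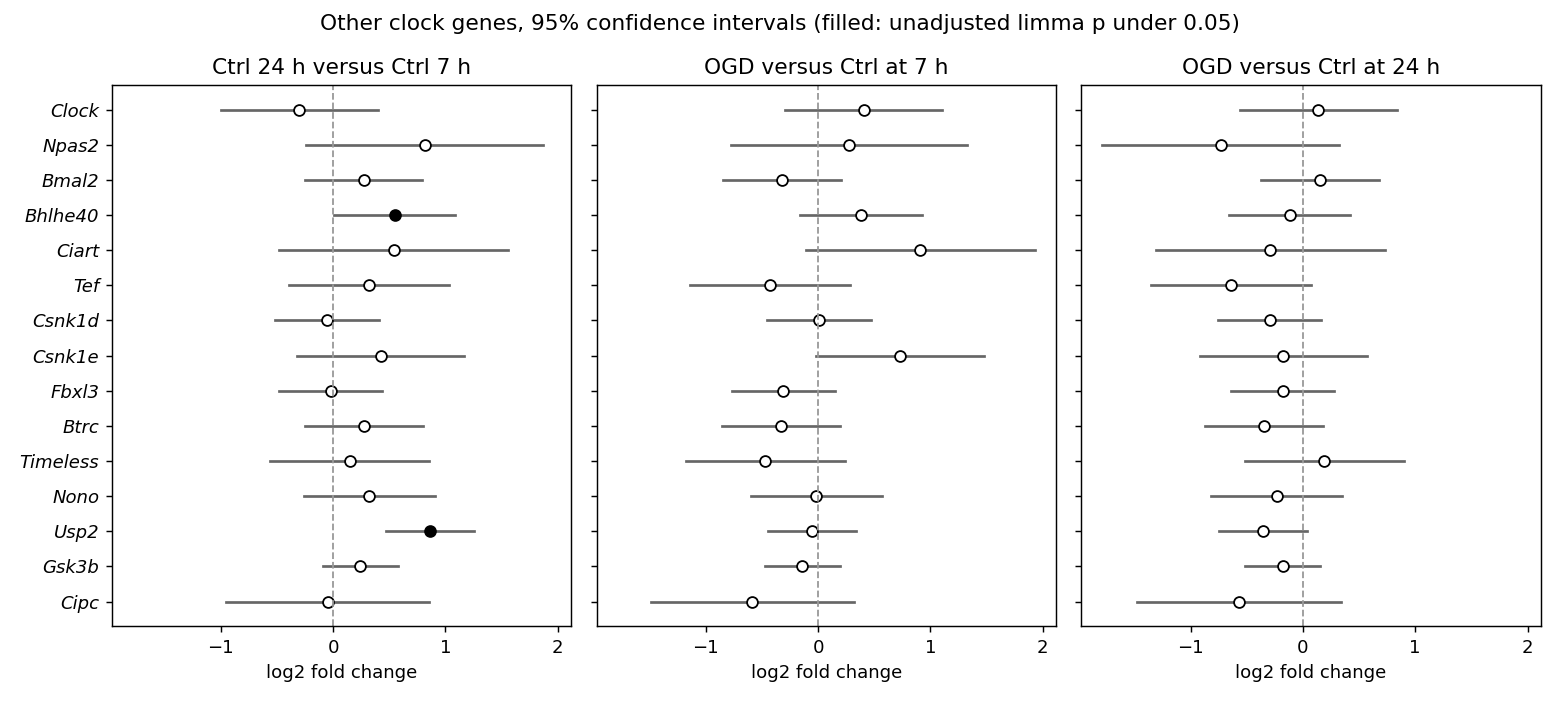
Log2 fold changes (horizontal axes) of 15 further clock genes in the same 3 comparisons, each on its brightest probe, with 95% confidence intervals from limma. Filled points had an unadjusted p under 0.05, which only *Bhlhe40* and *Usp2* reached, between the control times.

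Markers of cell types moved with some of these comparisons. All 10 neuron markers had a probe well above background on all 12 arrays, and so had the 9 astrocyte markers with a probe and 7 of 10 microglia markers. At 24 h after OGD, where *Nfil3* and *Cry2* were lower, all 10 neuron markers were below 0 with a median of -0.68. Of them 4 passed as lower, against 6.19% of all probes. At 7 h 7 of 10 were below 0 with a median of -0.58, and 1 passed as lower, against 7.03% of all probes. The summed level of the neuron markers, on the log2 scale, was 9.80 to 10.2 in Ctrl 24 h and 8.98 to 9.77 in OGD 24 h, without overlap, and 9.59 to 9.97 in Ctrl 7 h and 9.49 to 9.99 in OGD 7 h. OGD 24 h replicate 1 was the lowest at 8.98, while replicates 2 and 3 had 9.77 and 9.73, close to the lowest Ctrl 24 h value of 9.80. Marker counts and medians without that array are not given here.

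Between the control times 7 of the 10 neuron markers were above 0, with a median of 0.28, and 2 passed. The astrocyte markers had medians of 0.13 at 7 h after OGD, with 2 that passed as higher, -0.12 at 24 h and 0.00 between the control times. Of the microglia markers 1 passed as higher at 7 h and 1 at 24 h after OGD, and 1 passed as higher between the control times, and their summed level was 4.37 to 4.67 in Ctrl 24 h and 4.65 to 5.13 in OGD 24 h. Of the oligodendrocyte lineage markers 2 passed as lower at 7 h and 1 as higher at 24 h, and of the vascular and fibroblast markers 2 as lower at 7 h and 2 as higher at 24 h. Between the control times 8 of the 10 oligodendrocyte lineage markers were above 0, with a median of 0.34, and 1 passed. Their summed level was 7.78 to 7.84 in Ctrl 7 h and 8.02 to 8.48 in Ctrl 24 h, without overlap. None of the vascular and fibroblast markers passed there, with a median of -0.24. Over all probes, 4.79% passed as higher and 7.03% as lower at 7 h after OGD, and 7.51% and 6.19% at 24 h. Between the control times 5.65% passed as higher and 9.07% as lower.

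From OGD 7 h to OGD 24 h 5 of the 10 oligodendrocyte lineage markers passed as higher, with a median of 0.65, and their summed level was 6.85 to 8.0 in OGD 7 h and 8.22 to 8.93 in OGD 24 h. Over all probes, 9.24% passed as higher and 7.41% as lower in this comparison. All 9 astrocyte markers were below 0, and 2 passed as lower. Of the neuron markers 7 of 10 were below 0, with a median of -0.13, and none passed. Of the vascular and fibroblast markers 2 passed as higher, and of the microglia markers 1 as higher and 1 as lower. The part of the makeup of the cultures in the differences of the clock genes was not tested.

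Over the 12 arrays the values of some members ran together. Pearson's r was 0.91 between *Dbp* and *Per2* (0.92 without OGD 24 h replicate 1), 0.88 between *Nfil3* and *Per3* (0.92 without it) and -0.80 between *Bmal1* and *Nr1d2* (-0.73 without it). Between *Bmal1* and *Nr1d1*, the other REV-ERB gene, r was -0.34 (-0.32 without that array). The *Nr1d2* probe was dim, with intensities of 24.4 to 54, and the part of array brightness in its values was not tested. The 12 arrays share 4 groups and 2 scan days, so these are descriptions of the arrays and not of a relation within a group. Among 10901 named genes with a brightest probe well above background throughout, the 5 with the pattern most like that of *Nfil3* were *Sh2d3c* (r = 0.970), *Begain* (r = 0.969), *Shank1* (r = 0.965), *Otub1* (r = 0.965) and *Dact3* (r = 0.962). For *Dbp* they were *Mpnd* (r = 0.965), *Trps1* (r = 0.956) and *Kat2a* (r = 0.954), for *Per2* *Dnmt3a* (r = 0.980), *Zfhx2* (r = 0.972) and *Myo5a* (r = 0.966), and for *Cry2* *Slc1a4* (r = 0.923), *Asb1* (r = 0.908) and *Fgfr1* (r = 0.907).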

How the data were processed

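RNA of 12 samples (200 ng each) was labelled with Cy3 and hybridised to Agilent rat 4x44K arrays, 1 sample per array. Per the methods, the wells of a condition were collected together. The deposited scanner files hold each spot's intensity, background-subtracted and detrended by Agilent Feature Extraction 10.5.1.1. The authors' value table holds log2 values centred per array on the median (BRB-ArrayTools 3.8.1 per the methods). Its scale and direction were found from the scanner values: after 1 constant per array, 99.92% to 100% of the probes of an array lay within 0.01, with column medians of 7.57 to 7.72.

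From the scanner files, outlier spots were dropped, each array's log2 intensities were centred on their median over non-control probes, and spots of a probe were averaged. All 30367 probes were fitted in 1 model of 4 groups with limma 3.58.1 (R 4.3.3), two-sided, with no block. Of the probes, 17996 were named through RefSeq accessions and 12371 were not named here. The number of arrays, 3 per group, limits the precision. Tests were checked on simulated data. Values were recomputed with quantile normalization, with the 75th percentile as the centre, with spike-in scaling, with normexp (offset 50, on median spot signals, as no mean signal was in the files), with a filter on dim probes, the authors' values, the methods' t-test, fits of 1 comparison alone, the mean of a gene's probes, blocks, and leaving out each array.

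Named were the 10 members, the other clock genes that passed in a comparison described, *Clock*, *Npas2*, *Rora*, *Tef* and *Hlf* in any case, and the genes most like a member by r. The members and lists were chosen with earlier results of these data known. Neuron, astrocyte, microglia, oligodendrocyte lineage, and vascular and fibroblast markers were lists of 10 genes each, given by counts.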

Additional observations from a re-analysis of the deposited data

How the results depend on the processing

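Of 870 values of single genes under an alternative setting, 772 kept their direction and their side of the threshold, 17 lost and 34 gained the call, and 47 changed sign. Many of the 870 could not change direction. The methods' t-test, fits of 1 comparison alone, blocks and leaving out an array outside the comparison all keep the same difference. The numbers of genes that passed changed as follows. At 7 h after OGD the number higher (0) was 1 with quantile normalization and 1 with normexp, and 0 to 1 on leaving out 1 array. The number lower (1) was 2 with quantile normalization, 0 with spike-in scaling, 3 with the methods' t-test, 3 in the fit of that comparison alone, 2 with the mean of the probes, and 1 to 3 on leaving out 1 array, with 3 without OGD 24 h replicate 1. At 24 h the number lower (2) was 3 with centring on the 75th percentile, where *Cry2* was lost and *Per2* and *Per3* were gained, 3 with quantile normalization, 3 with dim probes left out, 0 with spike-in scaling, 1 in the fit of that comparison alone, and 2 to 5 on leaving out 1 array, with 5 without OGD 24 h replicate 3 (*Nfil3*, *Cry2*, *Dbp*, *Per2* and *Per3*), where 10.8% of all probes passed as lower. Between the control times the number higher (5) was 0 with spike-in scaling and 2 with normexp, where *Nfil3*, *Per1* and *Per3* were lost, 7 with the methods' t-test and 7 in the fit of that comparison alone, each with *Nr1d1* and *Nr1d2* added, and 4 to 7 on leaving out 1 array. The number lower (0) was 10 with spike-in scaling. For the change of the OGD effect the number lower (0) was 0 to 2 on leaving out 1 array.

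Spike-in scaling rests on 1 of 10 kinds of spike-in probe and shifted the median of all probes by -0.86 at 7 h, -1.01 at 24 h and -4.62 between the control times. Values that changed sign under it were, at 7 h, *Dbp* -0.43, *Per1* -0.77, *Per2* -0.64, *Cry1* -0.43, *Nr1d1* -0.74 and *Nr1d2* -0.25; at 24 h, *Cry1* -0.94; between the control times, *Nfil3* -3.56, *Dbp* -2.67, *Per1* -4.19, *Per2* -3.11, *Per3* -3.77, *Cry1* -4.54, *Nr1d1* -3.68 and *Nr1d2* -3.88; and for the change of the OGD effect, *Cry2* -0.13. *Nfil3* at 24 h lost its call (-2.19, SE 1.12), relative to the shift -1.18. With normexp, at 7 h *Dbp* was -0.18, *Per2* -0.12, *Cry1* -0.077 and *Nr1d1* -0.053; at 24 h *Per1* was 0.15, *Cry1* -0.28 and *Nr1d2* 0.13; between the control times *Cry1* was -0.017; and the change of *Per3* was 0.013. Centring on the 75th percentile gave *Per1* 0.048 and *Bmal1* 0.061 at 24 h, where quantile normalization gave *Bmal1* 0.061, and *Cry1* -0.0043 between the control times. The mean of its probes gave the change of *Per3* as 0.45. At 24 h *Per2* gained a call with centring on the 75th percentile (-0.83), and *Per3* with that centring (-0.35), with quantile normalization (-0.39) and with dim probes left out (-0.47). The cause was not tested.

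Signs that turned on leaving out 1 array belonged to values near 0: *Per1* (-0.040 to 0.15) and *Nr1d1* (-0.041 to 0.18) at 7 h, *Per1* (-0.16 to 0.018), *Cry1* (-0.18 to 0.26), *Bmal1* (-0.31 to 0.24), *Nr1d1* (-0.64 to 0.33) and *Nr1d2* (-0.55 to 0.37) at 24 h, *Cry1* (-0.14 to 0.23) between the control times, and the change of *Per3* (-0.24 to 0.17) and *Nr1d1* (-0.71 to 0.26).

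The correlation of deviations from the group means within a slide was -0.049, 0.11 and -0.01 at 7 h and 0.084, 0.17 and -0.011 at 24 h. Between control arrays of 1 number it was 0.26, 0.04 and 0.26. No pairs of unlike number were set beside these, so they cannot show whether the replicate numbers pair the samples. With the slide as a replicate block the number of genes lower stayed 1 at 7 h and 2 at 24 h. With the replicate number as a block in a fit of the 6 control arrays, which also leaves out the 6 OGD arrays, *Nr1d1* (0.90, SE 0.18) and *Nr1d2* (0.69, SE 0.15) passed as well. Over all probes, 1717 passed as higher and 2754 as lower between the control times, with the block 3892 and 5777, in the 6 control arrays with no block 3034 and 4705, with normexp 301 and 583, and with quantile normalization 2393 and 2462. At 7 h after OGD 1455 passed as higher and 2135 as lower, with centring on the 75th percentile 1648 and 1543 and with normexp 3682 and 2163. At 24 h 2280 passed as higher and 1880 as lower, with normexp 449 and 1028. By the methods' t-test at their p and fold thresholds, 0, 1 and 3 of the 10 genes were called at 7 h, at 24 h and between the control times, as with limma, and none after adjustment.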
